A study of Mus musculus with 6 samples.

Results

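The Cks genes encode small proteins that bind cyclin-dependent kinases, and 3 of the 27998 genes in the deposited count table carry the name: Cks1b, Cks2 and Cks1brt. Cks1b and Cks2 are the conserved pair. Cks1brt is a retrogene, an intronless copy made from the Cks1b messenger RNA and inserted elsewhere in the genome. The 3 genes were chosen by name, and Cks1brt also because its counts had been seen to stand lower in the Rb1 cKO libraries. Its difference between the groups is therefore given as a description, with no test, and it supports nothing further. Testicular germ cells of male mouse fetuses were studied at embryonic day 14.5, with C57/B6 and 129 mixed in the background of both groups. The 3 samples labelled Rb1 cKO carried a conditional knockout of Rb1, and the 3 control samples were labelled wildtype. Which exon was deleted, which promoter drove Cre and whether animals were pooled are not stated in the labels. Live cells were sorted for tdTomato, a red fluorescent protein, and sequenced with 10x Chromium v2 chemistry. That chemistry reads the 3' ends of transcripts and marks each captured molecule with a unique molecular identifier (UMI).

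A Cks protein docks the cyclin-dependent kinase complex onto substrates that already carry phosphate. Cks1, the product of Cks1b, is also the cofactor that lets the ubiquitin ligase SCF-Skp2 recognise the kinase inhibitor p27. In mice, loss of Cks2 leaves both sexes sterile, with germ cells stopped in metaphase of the meiotic divisions. Rb1 encodes the retinoblastoma protein, which holds back E2F transcription factors, and male germ cells of this age are leaving the mitotic cycle.

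The copied coding sequence shows how alike the transcripts are, and so where reads could be shared. Coding bases of each gene are given from the GENCODE M21 transcripts on GRCm38, spliced, 5′ to 3′. Cks1b lies on the minus strand, with its coding bases within chr3:89415911-89418213. The copy within Cks1brt lies on the plus strand in a single exon at chr8:85171571-85171810, and the coding bases of Cks2 lie on the plus strand within chr13:51645413-51650389. Capitals in the Cks1b and Cks1brt lines mark bases at which these 2 genes differ, and capitals in the Cks2 line mark bases that differ from Cks1b.
Cks1b: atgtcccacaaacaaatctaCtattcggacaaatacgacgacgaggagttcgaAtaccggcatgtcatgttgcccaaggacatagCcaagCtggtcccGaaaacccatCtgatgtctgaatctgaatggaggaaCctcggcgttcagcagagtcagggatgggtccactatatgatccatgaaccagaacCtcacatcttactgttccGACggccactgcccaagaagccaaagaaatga
Cks1brt: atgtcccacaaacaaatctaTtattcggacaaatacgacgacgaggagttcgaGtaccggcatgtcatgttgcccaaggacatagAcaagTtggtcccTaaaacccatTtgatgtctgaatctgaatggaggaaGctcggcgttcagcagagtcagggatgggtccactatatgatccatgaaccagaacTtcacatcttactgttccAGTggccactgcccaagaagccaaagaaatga
Cks2: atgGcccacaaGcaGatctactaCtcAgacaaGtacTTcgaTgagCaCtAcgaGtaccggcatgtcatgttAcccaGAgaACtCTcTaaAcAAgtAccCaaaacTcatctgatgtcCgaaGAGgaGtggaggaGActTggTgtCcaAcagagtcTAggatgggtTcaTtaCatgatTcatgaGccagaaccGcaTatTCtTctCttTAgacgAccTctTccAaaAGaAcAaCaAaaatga
Cks1brt matched Cks1b at 229 of 240 coding bases, or 95.4%. Cks2 matched Cks1b at 177 of 240, or 73.8%, and Cks1brt at 70.8%. The retrogene is thus far closer in sequence to its parent than the 2 conserved genes are to each other.

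Cks1b spans chr3:89415472-89418383 in 3 exons, with a transcript of 849 bases. Cks2 spans chr13:51645232-51650660, also in 3 exons, with a transcript of 692 bases. Cks1brt spans chr8:85151924-85173622 in 2 exons, with a transcript of 2397 bases. The whole coding sequence of Cks1brt lies in its 3' exon, and its annotated start stands 51 bases, or 17 codons, ahead of the copied start. The copy ran from base 106 of the Cks1b transcript to its end at base 849, and it held part of the 5' UTR, the coding sequence and the whole 3' UTR. Over this stretch 694 of 724 aligned bases were identical, or 95.9%, with 30 mismatches and 28 gap bases. Identity was 95.6% in the 5' UTR, 95.4% in the coding sequence and 96.1% in the 3' UTR. The value of the 5' UTR rests on 45 aligned bases and leaves out 20 gap bases there. After the copied end, 24 of the next 30 bases in Cks1brt were A, and the annotated transcript ran on for 1365 bases. No annotated gene overlapped Cks1b or Cks1brt. The nearest gene to Cks1b was Shc1, 60 bases away on the opposite strand, with 1106 UMIs. The genes that flank Cks1brt are the pseudogene Gm45316, which has no row in the count table, and the olfactory receptor gene Olfr371, which had 0 UMIs.

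**Figure D1:**
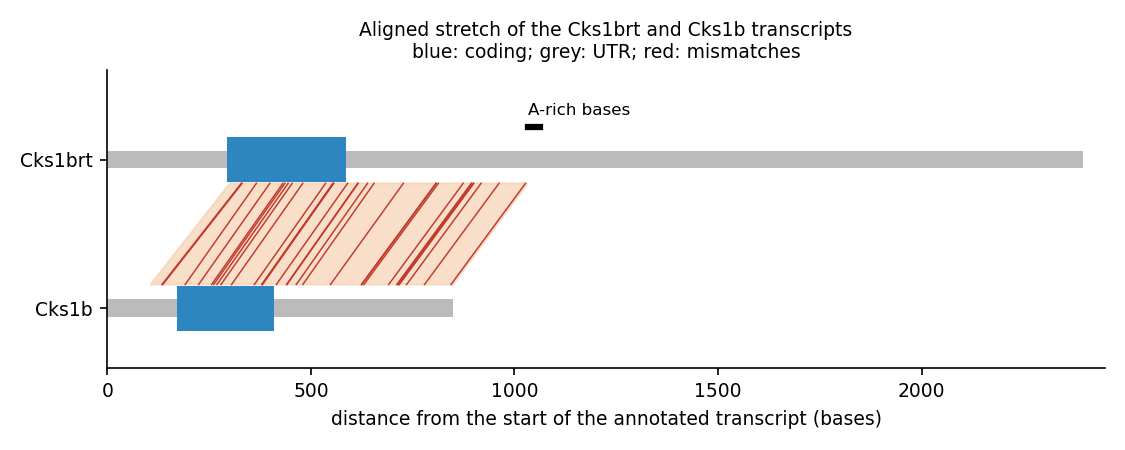
The annotated transcripts of Cks1brt (top) and Cks1b (bottom), in bases from the transcript start, with the coding parts in blue, the untranslated parts in grey and the aligned stretch shaded. The 30 red lines mark mismatches, which are spread over the whole stretch, and Cks1brt runs on 1365 bases past the copied end.

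Reads of the libraries were not used, so sharing was judged from the sequences. Windows were compared base by base without gaps, so those that span a gap in the alignment counted as less alike than a gapped comparison would show. Of the 752 windows of 98 bases in the Cks1b transcript, the usual cDNA read length of this chemistry, 0 occurred unaltered in Cks1brt, and 41 had at most 2 mismatches to it. In the last 400 bases, where 3' libraries place most reads, 39 of 303 windows had at most 2 mismatches. Shorter reads would be less distinct, since 44 of 800 windows of 50 bases were identical and 299 had at most 2 mismatches. The longest identical run was 64 bases. The sources used here do not give the read length of these libraries. In the other direction, 80.5% of the 98-base windows of Cks1brt had more than 10 mismatches to Cks1b, because most of that transcript lies outside the copy. Cks1b and Cks2 stood further apart, with at least 21 mismatches in any window of 98 bases. Processed pseudogenes of both genes exist as well. Gm15452 matched the Cks2 coding sequence at 100% over 240 bases, and Gm32460 matched that of Cks1b at 93.7% over 239 bases. None of the 8 pseudogenes found with at least 100 aligned bases has a row in the count table. Their annotated spans are themselves about as short as the coding sequence, so copies of a 3' UTR beside them could not be seen. The genome around them was not searched.

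Counts were summed over cells within each sample, so that the sample was the replicate. The 6 samples held 430 to 1354 cells each, 5154 in all, and 7598511 to 17323152 UMIs. Median UMIs per cell were 14746 ± 1681 in Rb1 cKO and 14748 ± 2537 in control samples (SD, n = 3 each), and an exact two-sided permutation test gave p = 1, the smallest possible being 0.1. Levels are given as CPM, the UMIs of a gene scaled to a common total per sample. Each molecule is counted once at its 3' end, so a level is not scaled by transcript length. In such sums, fewer cells with a transcript and fewer transcripts per cell cannot be told apart. Rb1 stood at 3.46, 3.73 and 3.57 CPM in Rb1 cKO samples, against 10.3, 8.82 and 6.87 CPM in control samples, with no overlap. The fitted Rb1 log2 fold change of -1.27 ± 0.19 (SE) had adjusted p-values of 0.416 by edgeR and 0.0479 by DESeq2, and the counted 3' end may lie outside the deleted part. All 10 germ cell markers were present, at 8583 to 9469 CPM summed in Rb1 cKO and 8726 to 9601 CPM in control samples. Markers of 7 other testicular and blood cell types summed to at most 54.0 CPM in any sample, and these sums overlapped between the groups. The highest sum was the endothelial one of control 3, of which Pecam1 made up 49.9 CPM. The Leydig cell genes Hsd3b1 and Insl3 and the epithelial gene Upk3b were at 0. Single genes without overlap were Hba-a1, Hba-a2, Pdgfra, Pf4 and the germ cell marker Nanos3, lower in Rb1 cKO, and Acta2, higher in Rb1 cKO. Acta2 had at most 1.41 CPM and Pdgfra at most 0.183 CPM in any sample. Among all genes tested, 8.62% had no overlap between the groups. The macrophage list did not overlap, at 1.19 to 2.38 CPM in Rb1 cKO and 3.198 to 49.4 CPM in control samples, and Pf4 made up most of the highest value, in control 2. The part of these marker levels in the results below was not tested. A total of 18 barcodes carried 9 sequences that occurred in more than 1 library.

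Cks2, the member with the highest level, hardly differed between the groups. It had 6300, 10763 and 13003 UMIs in Rb1 cKO samples 1 to 3, or 807, 854 and 773 CPM. The control samples 1 to 3 had 8734, 6639 and 14186 UMIs, or 798, 874 and 819 CPM. The ranges overlapped, with Rb1 cKO 3 the lowest and control 2 the highest. Group means were 812 ± 40.6 CPM in Rb1 cKO and 830 ± 39.1 CPM in control samples (SD, n = 3 each), and the fitted log2 fold change was -0.05 ± 0.07 (SE).

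Cks1b, the cofactor gene of SCF-Skp2, stood at a lower level than Cks2 in every sample and also overlapped between the groups. It had 2337, 3956 and 4884 UMIs in Rb1 cKO samples, or 299, 314 and 291 CPM. Control samples had 3431, 2247 and 4861 UMIs, or 314, 296 and 281 CPM. The lowest value was that of control 3, and the highest values, in Rb1 cKO 2 and control 1, were nearly equal. The means were 301 ± 11.9 CPM in Rb1 cKO and 297 ± 16.5 CPM in control samples, with a log2 fold change of 0.01 ± 0.07 (SE). There were 2.66 to 2.72 Cks2 UMIs per Cks1b UMI in Rb1 cKO samples and 2.55 to 2.95 in control samples. The spread of this ratio was wider among the controls.

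Cks1brt was counted at a small fraction of its parent's level. It had 20, 25 and 63 UMIs in Rb1 cKO samples, or 2.56, 1.98 and 3.75 CPM. Control samples had 71, 52 and 100 UMIs, or 6.49, 6.84 and 5.77 CPM. Every Rb1 cKO sample lay below every control, and Rb1 cKO 3 came nearest to the controls. The means were 2.76 ± 0.899 CPM in Rb1 cKO and 6.37 ± 0.545 CPM in control samples (SD, n = 3 each), with a log2 fold change of -1.18 ± 0.25 (SE). Without Rb1 cKO 3 the log2 fold change was -1.53, and without Rb1 cKO 2 it was -0.97. All 3 members passed the filter on low counts, which left 11540 genes. Of these genes, 3.54% were lower in every Rb1 cKO sample than in every control, and 0.416% had a log2 fold change of -1 or lower. Cks1brt was in both sets, which follows from how it was chosen, and Cks1b and Cks2 were in neither.

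**Figure D2:**
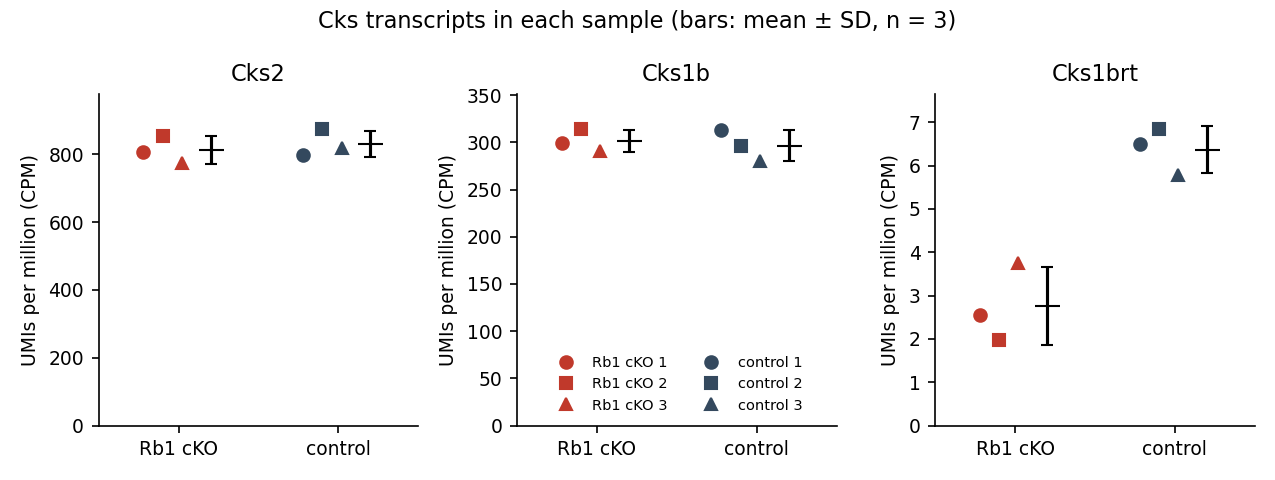
CPM of Cks2, Cks1b and Cks1brt in each of the 3 Rb1 cKO (red) and 3 control (dark blue) samples, with the group mean and SD (n = 3) in black and each vertical axis from 0 on its own scale. Cks2 and Cks1b overlap between the groups, while Cks1brt lies at 1.98 to 3.75 CPM in Rb1 cKO and 5.77 to 6.84 CPM in control samples.

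Because these transcripts are so alike, the balance of the Cks1b and Cks1brt rows was followed over samples, clusters and cells. Cks1brt made up 0.849%, 0.628% and 1.27% of the summed Cks1b and Cks1brt UMIs in Rb1 cKO samples 1 to 3. In control samples 1 to 3 it made up 2.03%, 2.26% and 2.02%. The exact 95% binomial intervals (Clopper-Pearson) of single samples lay within 0.407% to 1.63% in Rb1 cKO and 1.59% to 2.96% in control samples, and they cover counting error only. The mean share was 0.917 ± 0.328% in Rb1 cKO and 2.10 ± 0.139% in control samples (SD, n = 3 each). Since Cks1b was at like levels in both groups, this share restates the Cks1brt values by which the gene was chosen. Adding both rows gave 304 ± 11.02 CPM in Rb1 cKO and 303 ± 16.8 CPM in control samples (SD, n = 3 each), with overlap between the groups. How far reads of Cks1b contributed to the Cks1brt row was not tested.

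**Figure D3:**
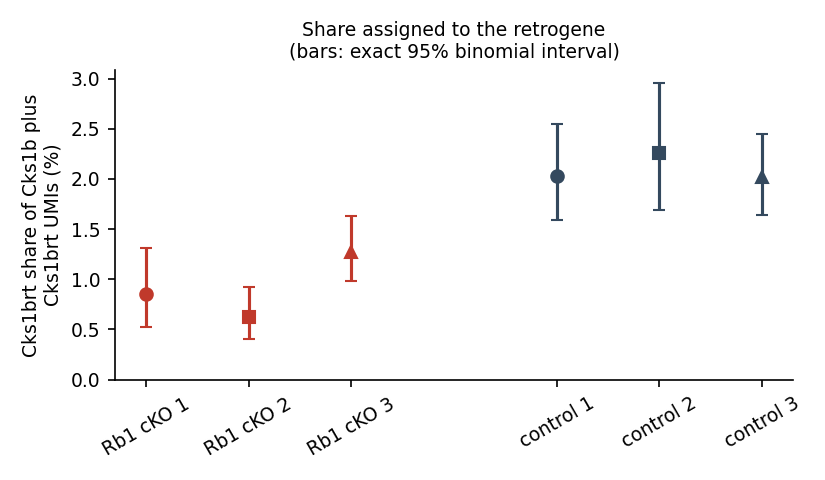
Percent of the summed Cks1b and Cks1brt UMIs that were counted as Cks1brt in each sample, with bars for the exact 95% binomial interval of that sample. The 3 Rb1 cKO samples stand at 0.628% to 1.27% and the 3 control samples at 2.02% to 2.26%.

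The deposited annotation divides the cells into 5 clusters without names. Leading genes were Ccne1 and Rrm2 in cluster 0, Cdc20 and Ccnb1 in cluster 1, histone genes such as Hist1h1e in cluster 2, Pf4, Rpgrip1 and Slc24a5 in cluster 3, and Dcxr and Mcam in cluster 4. Pf4 came almost wholly from 1 library, at 0 to 0.128 CPM over all cells in Rb1 cKO samples and 0.274, 47.1 and 0.635 CPM in control samples 1 to 3. The clusters were made from the same cells and genes, so differences between them are described without a test. Points of at least 20 cells of 1 sample in 1 cluster were used, which gave 26 points, and in cluster 4 only Rb1 cKO 3 and control 3 reached that number.

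Cks2 had its highest level in cluster 1, which is led by genes of mitosis. There it stood at 1046, 1167 and 1070 CPM in Rb1 cKO samples and 1078, 1170 and 1094 CPM in control samples. In cluster 0 it had 632 to 727 CPM in Rb1 cKO and 627 to 697 CPM in control samples. In the histone-led cluster 2 it had 571 to 623 CPM in Rb1 cKO and 570 to 602 CPM in control samples. Within a sample, cluster 1 held 1.63 ± 0.0759 times the Cks2 level of cluster 0 and cluster 2 held 0.869 ± 0.0342 times that level (SD, n = 6 samples). The order of clusters 1, 0 and 2 was therefore the same in all 6 samples. Cluster 3 stood at 748 to 791 CPM in Rb1 cKO and 680 to 866 CPM in control samples, between clusters 0 and 1 in each sample except control 3.

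Cks1b varied less over the clusters and in another order. In cluster 1 it had 314 to 338 CPM in Rb1 cKO and 311 to 337 CPM in control samples, and in cluster 2 it had 326 to 348 CPM in Rb1 cKO and 315 to 355 CPM in control samples. In cluster 0 it stood lower, at 263 to 279 CPM in Rb1 cKO and 247 to 283 CPM in control samples. Within a sample, cluster 1 held 1.21 ± 0.0260 times and cluster 2 held 1.25 ± 0.0160 times the level of cluster 0 (SD, n = 6). Both stood above cluster 0 in every sample, and cluster 1 stood slightly below cluster 2 in 6 of 6 samples, at 0.951 to 0.986 times its level. The histone-led cluster was thus the lowest of these 3 for Cks2 and not for Cks1b. The count of Cks2 UMIs per Cks1b UMI was 3.37 ± 0.107 in Rb1 cKO and 3.43 ± 0.202 in control samples in cluster 1, against 1.77 ± 0.0234 and 1.75 ± 0.107 in cluster 2 in the same group order (SD, n = 3 each). In cluster 3, Cks1b had 314, 330 and 296 CPM in Rb1 cKO samples and 313, 250 and 214 CPM in control samples. The low value of control 3 there came from 25 cells with a median of 4654 UMIs, the shallowest point of that cluster.

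Cks1brt was lower in each Rb1 cKO sample than in each control in clusters 0, 1 and 2. In cluster 0 it stood at 2.57, 1.72 and 3.80 CPM in Rb1 cKO samples and 5.22, 5.76 and 4.84 CPM in control samples. In cluster 1 it stood at 3.16, 1.93 and 4.24 CPM in Rb1 cKO samples and 7.14, 8.54 and 6.99 CPM in control samples. In cluster 2 it stood at 1.75, 2.51 and 3.12 CPM in Rb1 cKO samples and 5.05, 6.77 and 5.51 CPM in control samples, from 2 to 7 and 6 to 14 UMIs. The same 6 samples lie behind each cluster, so these are not separate results. In cluster 3 the groups overlapped, with 1.71, 2.93 and 1.63 CPM in Rb1 cKO samples and 11.9, 6.44 and 0 CPM in control samples. The 0 was that of control 3, whose depth there allows a level of up to 18.4 CPM (3 counts). Cluster 4 gave 2 UMIs in 20 cells of Rb1 cKO 3 and 3 UMIs in 27 cells of control 3, too few to tell apart.

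The variation of Cks1brt over the clusters was loosely measured. Within a sample, cluster 1 held 1.29 ± 0.162 times its cluster 0 level and was above it in 6 of 6 samples, while cluster 2 held 1.04 ± 0.276 times that level, from 0.679 to 1.45 (SD, n = 6). The Cks1b ratios lie within this spread. Its share of the summed Cks1b and Cks1brt UMIs, pooled over the 3 samples of a group, was 0.673% to 1.16% over the 5 clusters in Rb1 cKO and 1.69% to 2.96% in control samples. The values of cluster 4 rest on 2 UMIs in Rb1 cKO and 5 UMIs in control samples, with exact 95% intervals of 0.141% to 4.14% in Rb1 cKO and 0.9505% to 6.65% in control samples.

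**Figure D4:**
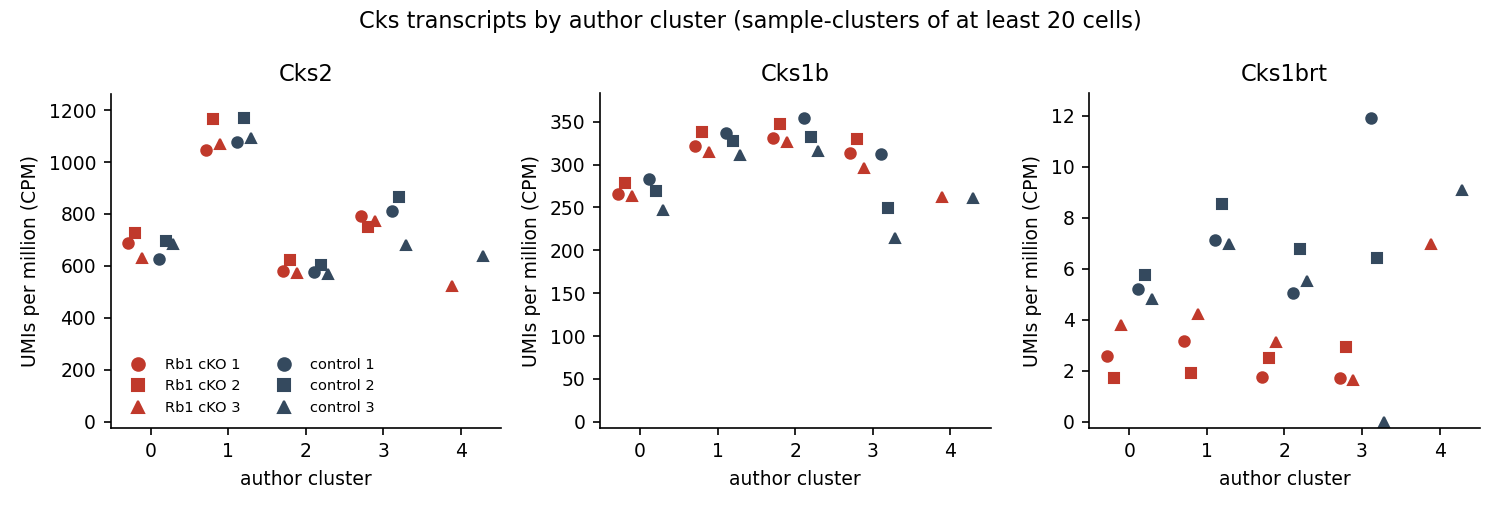
CPM of Cks2, Cks1b and Cks1brt in each author cluster, with 1 point for each sample that has at least 20 cells there, Rb1 cKO (red) left of control (dark blue), and a vertical scale of its own for each gene. Cks2 peaks in cluster 1, Cks1b stands lowest of clusters 0 to 2 in cluster 0, and the Cks1brt groups are apart in clusters 0 to 2 and overlap in cluster 3.

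Single cells showed how thinly Cks1brt was sampled. Of the 5154 cells, 4835 had no Cks1brt UMI, 307 had 1 and 12 had 2. To compare detection at equal depth, each cell was thinned to 10000 UMIs, which left 4698 cells and dropped 25, 91 and 66 in Rb1 cKO samples and 43, 13 and 218 in control samples. Cks1brt was then found in 2.42%, 1.76% and 3.37% of cells in Rb1 cKO samples and in 5.69%, 4.08% and 5.55% in control samples. The mean was 2.51 ± 0.811% in Rb1 cKO and 5.10 ± 0.893% in control samples (SD, n = 3 each). Without thinning, the shares were 4.17%, 2.65% and 5.24% in Rb1 cKO samples and 8.71%, 11.6% and 7.02% in control samples. The groups stayed apart both ways, though thinning brought control 2, the deepest per cell, from the highest control to the lowest. No cell type known to lack Cks1brt was at hand to give its background. Cks1b was found in 94.96 ± 0.445% of thinned cells in Rb1 cKO and 93.4 ± 0.308% in control samples, and Cks2 in 99.7 ± 0.136% and 99.4 ± 0.316% in the same group order. Both conserved genes were thus detected in nearly every cell of both groups. The thinned Cks1b shares did not overlap, at 94.5% to 95.4% in Rb1 cKO and 93.0% to 93.7% in control samples. Without thinning they overlapped, at 96.6% to 97.7% in Rb1 cKO and 95.2% to 97.9% in control samples.

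Cells were also arranged by their own Cks1b count after thinning. In Rb1 cKO cells the share with a Cks1brt UMI was 2.49% at 0 or 1 Cks1b UMI, 2.70% at 2 or 3, 2.64% at 4 or 5, 2.48% at 6 or 7 and 2.50% at 8 or more. In control cells the shares in the same bins were 3.36%, 4.80%, 7.18%, 7.82% and 5.71%. The Rb1 cKO values were nearly level, and the control values were higher in the middle bins than in the lowest one. The top bin held only 40 Rb1 cKO and 35 control cells, with exact 95% intervals of 0.0633% to 13.2% and 0.700% to 19.2%. Cells of 3 samples were pooled in each group here, so the intervals cover counting error and not the spread between samples. Within single samples, Spearman's rho across cells between Cks1b and Cks1brt was 0.00051 to 0.094, and that between Cks1b and Cks2 was -0.0032 to 0.163. Such weak correlations in sparse counts are no finding.

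**Figure D5:**
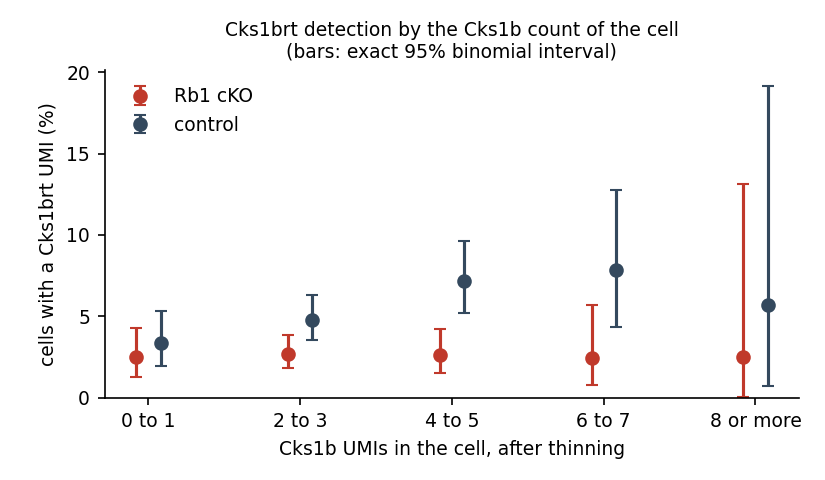
Percent of cells with at least 1 Cks1brt UMI against the number of Cks1b UMIs in the same cell, after thinning every cell to 10000 UMIs, for Rb1 cKO (red) and control (dark blue) cells pooled over 3 samples each, with exact 95% binomial intervals. Rb1 cKO cells stay at 2.48% to 2.70% in all 5 bins, and control cells run from 3.36% to 7.82%.

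The genes most like each member were sought by Pearson's r of log2(CPM + 1) over the 26 points, among genes that averaged 20 CPM or more. The points share libraries and differ in depth, so these correlations describe the clusters and samples, and no p is given. Cks2 was most like Arl6ip1 (r = 0.946), the APC/C ubiquitin-conjugating enzyme genes Ube2c (0.941) and Ube2s (0.935), Hn1 (0.907) and the cyclin gene Ccnb1 (0.892). Genes most like Cks1b included the ubiquitin gene Ubb (0.834), the mitochondrial ribosome gene Mrpl47 (0.826) and Mphosph10 (0.818). Cks1brt was most like Trim25 (0.778), Cdh1 (0.743), Ddb1 (0.728), Sesn2 (0.710) and Dhx8 (0.702). The points hold both groups, so the lower Rb1 cKO values by which Cks1brt was chosen enter its r values. Each of these genes also had a lower mean in Rb1 cKO, as Trim25 with 23.2 CPM against 27.8 CPM in control samples. The list is therefore no result separate from that choice. The members were little like each other, with r = 0.233 for Cks1b and Cks2, 0.188 for Cks1b and Cks1brt and 0.0987 for Cks2 and Cks1brt. Cks1brt had at most 45 UMIs in any of the points.

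The sequences before the RefSeq starts of the members differed in the motifs they held. The 250 bases before each RefSeq start on GRCm38.p6 were searched on both strands for CCAAT, for the cell cycle homology element TTTGAA, and for E2F forms. The E2F forms were TTCCCGC as the common one, with TTGGCGC as a variant, then TTCGCGC as another variant, and finally also the form TTGCCGC. Cks1b held 4 CCAAT matches, at 217, 177, 89 and 41 bases before its RefSeq start, and 2 of TTTGAA, at 77 and 17 bases. Its searched bases, chr3:89418292-89418541, overlap the GENCODE transcript used above, whose 5' exon reaches 89418383. The matches at 89, 77, 41 and 17 bases lie within that exon and not upstream of it. Those at 217 and 177 bases lie within the gene Shc1, which starts at 89418443 on the plus strand. Cks2 held 2 CCAAT matches, at 65 and 22 bases, and Cks1brt held 1, at 198 bases. None of the 3 held an E2F form, and TTTGAA was not found for Cks2 or Cks1brt. Among 32851 upstream sequences of that length, 33.8% held CCAAT, 15.99% TTTGAA and 7.89% an E2F form. A match is a description of letters and not a binding site.

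Genes that work with the Cks proteins or control them were taken as 4 lists, of which 64 of 67 distinct genes were tested. None passed an adjusted p of 0.05 by edgeR, and neither did any of the 11540 genes (0% called). At an unadjusted p under 0.05 there were 5 of the 64, against 405 genes in all (3.51%), and DESeq2 called 1 of them, Rb1, among 3 genes (0.016%). By sign, 39 were positive and 25 negative with a median log2 fold change of 0.04, against 5777 positive and 5763 negative with a median of 0.00 over all genes. CPM did not overlap between the groups for 12 of the 64, 7 higher and 5 lower in Rb1 cKO, against 8.62% of all genes in either direction, 5.09% higher and 3.54% lower. Rb1, the gene knocked out, is counted among the 5 at an unadjusted p under 0.05 and among the 12 without overlap.

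Of the kinase and cyclin partners, 10 of 12 tested had a positive and 2 a negative log2 fold change, with 0 called. The B cyclin genes Ccnb1 and Ccnb2, which act at entry into mitosis, had the highest levels. Ccnb1 stood at 340 ± 22.8 CPM in Rb1 cKO and 336 ± 25.9 CPM in control samples, and Ccnb2 at 307 ± 16.8 CPM in Rb1 cKO and 294 ± 24.6 CPM in control samples. The kinase gene Cdk1 had 142 ± 8.97 CPM in Rb1 cKO and 136 ± 9.63 CPM in control samples. These 3 differed by less than their spread. Cdk2 had 34.6 ± 1.36 CPM in Rb1 cKO and 27.1 ± 7.68 CPM in control samples. Its log2 fold change was 0.36 ± 0.18 (SE), and 0.15 without control 3. Ccne2, a cyclin of S phase entry, had a log2 fold change of 0.34 ± 0.51 (SE), which was -0.06 without Rb1 cKO 3. Wee1, which holds Cdk1 inactive, had one of 0.28 ± 0.15 (SE).

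The SCF-Skp2 list gave 10 positive and 4 negative values among 14 genes, with 0 called. Skp2, the receptor that Cks1 assists, had 31.8 ± 1.58 CPM in Rb1 cKO and 26.3 ± 1.296 CPM in control samples, with no overlap, a log2 fold change of 0.26 ± 0.10 (SE) and an adjusted p of 0.994 by edgeR. Cdkn1b, which encodes p27, had 7.20 ± 1.09 CPM in Rb1 cKO and 5.35 ± 1.098 CPM in control samples, with a log2 fold change of 0.43 ± 0.20 (SE). Cdkn1c, which encodes the related inhibitor p57, had 64.4 ± 11.9 CPM in Rb1 cKO and 50.1 ± 14.3 CPM in control samples. Its log2 fold change was 0.37, and 0.16 without control 3. The ligase parts with the highest levels differed little. Rbx1 stood at 851 ± 41.6 CPM in Rb1 cKO and 864 ± 23.2 CPM in control samples, Skp1a at 267 ± 5.79 and 258 ± 14.0 CPM, and the cullin modifier Nedd8 at 327 ± 5.63 and 333 ± 7.75 CPM, in the same group order.

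The anaphase-promoting complex (APC/C), whose binding to mitotic kinase complexes Cks proteins aid, gave 6 positive and 13 negative values among 19 genes, with 0 called. Its conjugating enzyme genes Ube2s and Ube2c stood at 1619 ± 77.7 and 500 ± 48.3 CPM in Rb1 cKO samples, against 1667 ± 63.4 and 520 ± 26.5 CPM in control samples. The subunit gene Anapc16 had 46.5 ± 4.10 CPM in Rb1 cKO and 54.0 ± 0.999 CPM in control samples, without overlap, and an adjusted p of 0.994 by edgeR. Fbxo5, which encodes the APC/C inhibitor Emi1, had a log2 fold change of 0.18 ± 0.10 (SE). Those of the subunit genes Anapc2 and Anapc11 were 0.14 ± 0.08 and 0.05 ± 0.07 (SE).

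Among the 20 E2F, DREAM and MuvB genes, which turn cell cycle genes on and off, 13 were positive and 7 negative, with 0 called. Rb1, given above, had the largest difference. E2f8, a repressor of the E2F family, had 22.9 ± 1.46 CPM in Rb1 cKO and 17.0 ± 0.152 CPM in control samples, without overlap, a log2 fold change of 0.41 ± 0.10 (SE) and an adjusted p of 0.994 by edgeR. Lin52 had a log2 fold change of 0.39 ± 0.26 (SE). Mybl2, an activator of late cell cycle genes, had 115 ± 1.37 CPM in Rb1 cKO and 124 ± 6.47 CPM in control samples. Rbbp4 and the E2F partner gene Tfdp2 had log2 fold changes of 0.02 ± 0.07 and 0.00 ± 0.09 (SE).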

How the data were processed

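Raw UMI counts per gene and cell barcode, with each barcode's sample and cluster, were used as deposited by the authors. Cell Ranger, Seurat 3.0 and the build mm10 are listed in the submitters' processing notes, without parameters. The annotation release, and how reads matching more than 1 gene were assigned, are not given in the sources used here. Cells were kept with 500 or more genes and less than 10% mitochondrial UMIs, which left 5154 of 5160. Doublets were not removed. Counts summed per sample were fitted in edgeR 4.0.16 (R 4.3.3) by its quasi-likelihood test (TMM, filterByExpr, robust, Benjamini-Hochberg over 11540 genes), checked on simulated counts. DESeq2 1.42.0 was an alternative. Printed CPM carry no TMM factor. SEs are the log2 fold change divided by the root of F. Members and lists were chosen with earlier results of these data known. In each list, genes were named if among the 3 with the highest level or the 3 with the largest fold change. Nothing says that replicates are separate animals, and p-values then reflect only how these samples vary, which may be technical. Transcripts were aligned by GENCODE M21, with match 2, mismatch -3, gap opening -5 and gap extension -2. Some of the genes most like Cks1b are not reported here.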

Additional observations from a re-analysis of the deposited data

How the results depend on the processing

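The log2 fold change of Cks1brt stayed negative under all 16 alternatives, from -1.53 to -0.97, both ends from leaving out an Rb1 cKO sample. That of Cks1b ran from -0.03 to 0.05 and that of Cks2 from -0.09 to 0.00. The Rb1 cKO minus control difference of the Cks1brt share was -1.18 percentage points, -0.905 in thinned cells and -1.36 to -1.04 with 1 sample left out. Differences in the percent of cells with a UMI were 1.601 for Cks1b, 0.338 for Cks2 and -2.59 for Cks1brt after thinning, against 0.416, -0.160 and -5.10 without it. Genes called by edgeR numbered 0, against 6 without the low-count filter, 3 by DESeq2 and 0 to 4 with 1 sample left out (4 without control 3). In the 4 lists the count was 0, against 1 (Rb1) without the filter, by DESeq2 and without control 3, and 0 to 1 with 1 sample left out. The adjusted p of Rb1 was 0.0181 without the filter, 0.0479 by DESeq2 and 0.0422 without control 3, and 0.337 to 0.9998 otherwise. The difference in median UMIs per cell was -1.33, against 1.83 over all barcodes and -1000.83 to 1425.92 with 1 sample left out. The log2 fold change of Ccnb1, near 0, turned positive with library totals (0.0143), with the replicate block (0.000156), without clusters 3 and 4 (0.0119) and with equal cells per sample (0.00593), and that of Tfdp2 was -0.0023 with RLE factors. With 1 sample left out, Ccnb1 ran from -0.0417 to 0.0359, Cdk1 from -0.0201 to 0.117, Ccne2 from -0.0615 to 0.859, Rbx1 from -0.0798 to 0.00906, Skp1a from -0.0141 to 0.0614, Rbbp4 from -0.00661 to 0.0648 and Tfdp2 from -0.0446 to 0.0530. The cause of these changes was not tested. Same-numbered samples of the groups had deviations correlated at -0.13, 0.23 and 0.20, and differently numbered ones at -0.30 to 0.16. The values of samples 2 and 3 were the highest of all and that of sample 1 was negative. These values do not settle whether the replicate numbers are pairs, and the main fit took none. With the replicate block 0 genes were called, and Cks1brt had a log2 fold change of -1.20. With 20 to 100 UMIs of Cks1brt per sample, counting error limits its values far more than those of Cks1b and Cks2.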
